A study of Homo sapiens with 4 samples.

Results

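The genes described here are 10 members of the NOTCH pathway, taken by name from the deposited table of 58735 genes. They comprise 3 receptors (NOTCH1, NOTCH2 and NOTCH3), 4 ligands (JAG1, JAG2, DLL1 and DLL4) and 3 target genes (HES1, HES4 and HEY1). All 10 were found in the table, 9 of them with a mean level of at least 1 FPKM over the libraries. HEY1 fell under that limit and is given by its values only. Levels are in FPKM, the unit of the table, which scales the fragments of a gene to its length and to the size of the library, so levels of different genes can be set side by side.

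RNA-seq was performed on total RNA of HCT116 and LOVO, a pair of human colorectal cancer cell lines, each labelled wild type. Adherent cells were kept in RPMI-1640 with serum and received no treatment. Spheroids, which the study uses as enriched colorectal cancer stem cells, were grown without attachment in serum-free medium with B27, N2, bFGF and EGF, in the presence of oxaliplatin. Their treatment label reads 1 mg/ml and names no drug, and its unit differs from the lower dose in the methods, so the dose is uncertain. Each condition had 1 library, so that a difference between libraries has no replicate error, and growth form, medium and drug cannot be told apart. The reads on genes numbered from 15483569 to 20429147 per library.

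NOTCH receptors are cleaved at the cell surface once a JAG or DLL ligand on a neighbouring cell binds them, and the released intracellular domain enters the nucleus and turns the DNA-binding protein RBPJ from a repressor into an activator. The classic targets are the HES and HEY genes, which code for bHLH transcriptional repressors. In the intestinal epithelium the pathway keeps progenitor cells undifferentiated and holds back the secretory lineage, and it is often studied in stem-like cancer cells.

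The cell type was checked before the pathway was read. Of 8 colon epithelial markers, KRT8 and KRT18 were present in all libraries, at 81.6 FPKM or more. In the libraries labelled HCT116, EPCAM stood at 85.6 FPKM in adherent cells and 79.3 FPKM in spheroids, and CDH1, the epithelial cadherin, at 31.1 FPKM in both. In the libraries labelled LOVO, EPCAM stood at 0.930 and 1.5 FPKM, CDH1 at 0.117 and 0.00805 FPKM, and CDX2, the intestinal transcription factor, had 0 reads in both. The stromal proteoglycan genes DCN and LUM were at 10.4 and 31.4 FPKM in adherent LOVO cells, against 0 in adherent HCT116 cells, and the 6 fibroblast markers summed to between 52.5 and 71.6 FPKM in LOVO and between 5.53 and 15.9 FPKM in HCT116. VIL1 and LGALS4 of the same epithelial list were under 0.1 FPKM in all 4 libraries, and of the fibroblast list COL1A2 and PDGFRA were near 0 in all 4, while COL1A1 was highest in HCT116 spheroids (15.5 FPKM). The libraries labelled LOVO thus had CDH1, CDX2 and EPCAM at or near 0, and the name LOVO below stands for the label. Levels and ratios of the members in HCT116 use no LOVO library, but the genes compared were chosen by their mean over all 4 libraries.

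HES1 and HES4 are the best measured targets among the members, and their promoters are shown because both hold the core letters that RBPJ recognizes, while the levels of their mRNAs are described separately below. Both sequences are from RefSeq (GRCh38.p14), cover the 250 bases before the annotated start in the direction of the gene, and have GTGGGAA in capitals.
HES1, chr3:194135898-194136147, plus strand: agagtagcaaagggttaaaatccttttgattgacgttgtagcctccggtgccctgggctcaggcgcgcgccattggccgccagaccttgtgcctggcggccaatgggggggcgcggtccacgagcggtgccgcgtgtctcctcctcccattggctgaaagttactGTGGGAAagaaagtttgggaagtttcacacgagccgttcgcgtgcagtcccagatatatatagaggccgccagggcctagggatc
HES4, chr1:1000098-1000347, minus strand: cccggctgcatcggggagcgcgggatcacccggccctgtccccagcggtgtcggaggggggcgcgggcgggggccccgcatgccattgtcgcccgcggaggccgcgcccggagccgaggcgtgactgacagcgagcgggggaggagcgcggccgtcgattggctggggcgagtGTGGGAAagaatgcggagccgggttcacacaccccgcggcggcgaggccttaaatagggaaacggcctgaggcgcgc

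The motif GTGGGAA was searched on both strands (its reverse complement is TTCCCAC). Its first base lay 85 bases before the RefSeq start of HES1 and 77 bases before that of HES4, in the direction of the gene in each. GENCODE 29 has HES4 begin further upstream, at base 1000172 of chromosome 1, so that the motif (bases 1000168 to 1000174) overlaps the first bases of the gene in that annotation. Of the 10 members, 8 had an entry in the promoter table, and only HES1 and HES4 of these 8 held the motif. Over all 35116 promoters in that table, 5.43% held it within the same 250 bases. A match of letters is a description and shows no binding.

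**Figure D1:**
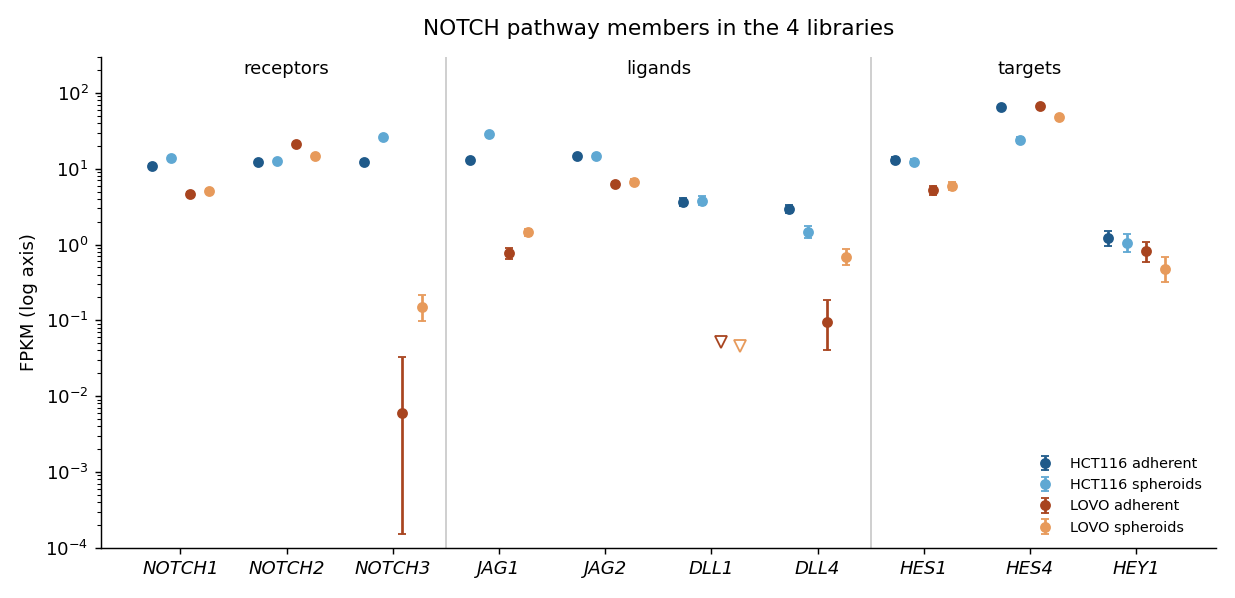
Level of each of the 10 members in FPKM (log axis) in the 4 libraries, 1 library per condition, with bars for the 95% Poisson interval of the reads. Open triangles mark DLL1 in LOVO, with 0 reads, at the level that 3 reads would give, and NOTCH3 in adherent LOVO cells rests on 1 read.

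Receptors were read first. NOTCH3 (GRCh38, chr19:15159038-15200981, minus strand) was at 12.4 FPKM in adherent HCT116 cells (2376 reads) and at 26.4 FPKM in spheroids of that line (4165 reads). In LOVO, NOTCH3 was close to absent, with 0.00594 FPKM in adherent cells (1 read) and 0.148 FPKM in spheroids (28 reads). The spheroid library was higher than the adherent library in both lines, and the LOVO libraries lay far below those of HCT116. The difference of NOTCH3 in HCT116 was 1.03 on the log2(FPKM + 1) scale, used for all log2 fold changes below. Without a pseudocount the log2 ratio came to 1.09 (1.02 to 1.16, the exact Clopper-Pearson interval at 95% for the reads), and in LOVO to 4.64 (2.04 to 10.0). These intervals cover counting error only and compare libraries, not conditions. As in any bulk sample, fewer cells with the transcript and less of it per cell cannot be told apart.

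NOTCH1, the founding receptor of the family (chr9:136494433-136545786, minus strand), was at 11.0 FPKM adherent and 13.7 FPKM as spheroids in HCT116, and its levels in LOVO were 4.65 and 5.15 FPKM. It was slightly higher in spheroids of both lines, with log2 ratios of 0.32 (counting interval 0.24 to 0.41) in HCT116 and 0.15 (0.02 to 0.28) in LOVO. NOTCH2 (chr1:119911553-120069626, minus strand) was the receptor with the least difference in HCT116, at 12.1 FPKM in adherent cells and 12.5 in spheroids, where the interval of its log2 ratio, from -0.02 to 0.11, included 0. In LOVO, NOTCH2 was at 21.1 FPKM in adherent cells and 14.5 in spheroids, a log2 ratio of -0.54 (-0.59 to -0.49). NOTCH2 values are uncertain because 23.4% of the 50-base stretches of its transcripts also occur in transcripts of other genes, among them NOTCH2NLA and NBPF19, so that reads may have been split between them. NOTCH4, the fourth receptor and no member, stayed at 0.127 FPKM or less in each library.

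The receptor makeup therefore differed between libraries. In adherent HCT116 cells, NOTCH1, NOTCH2 and NOTCH3 made up 30.8%, 34.1% and 34.9% of the summed receptor FPKM. In HCT116 spheroids, NOTCH3 made up 50.05% and the sum was 52.7 FPKM, against 35.6 FPKM in adherent cells. In LOVO, NOTCH2 made up 81.8% in adherent cells and 72.8% in spheroids, of sums of 25.8 and 19.9 FPKM.

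**Figure D2:**
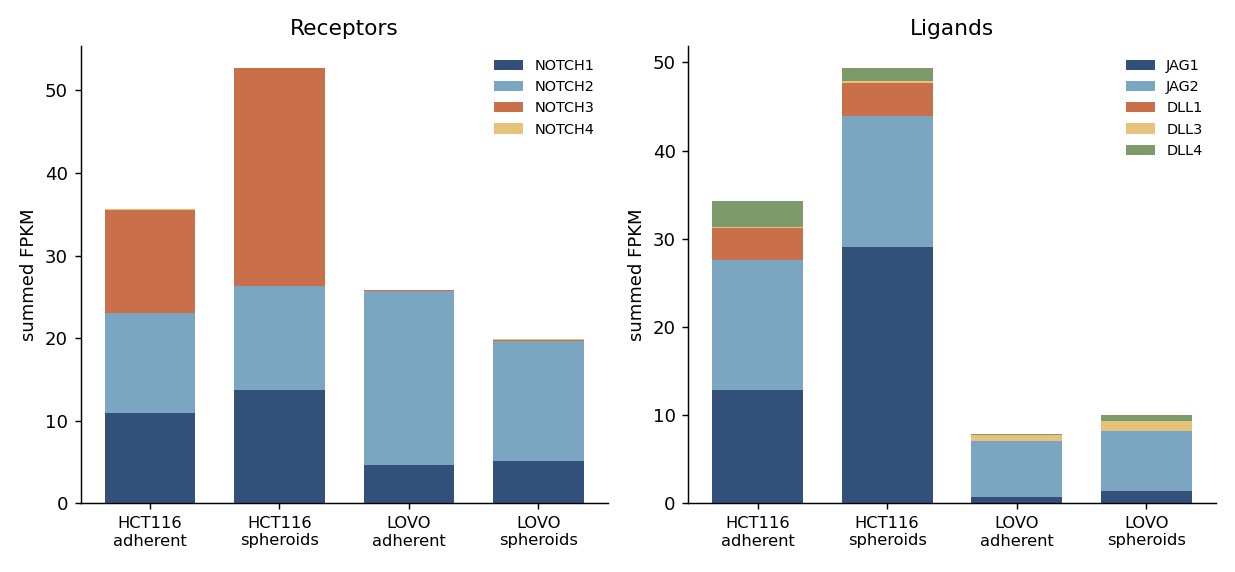
Summed FPKM of the 4 NOTCH receptors and of 5 ligands in each library, 1 bar per library, divided by gene. NOTCH3 and JAG1 take the largest parts in HCT116 spheroids, whereas NOTCH2 and JAG2 take most of the sums in both LOVO libraries.

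Ligands came next, and JAG1 (chr20:10637684-10673999, minus strand), a ligand anchored in the membrane of the signalling cell, was higher in the spheroid library of each line. In HCT116 its level was 12.9 FPKM adherent (2445 reads) and 29.1 FPKM as spheroids (4543 reads). In LOVO it was 0.762 FPKM adherent (127 reads) and 1.44 FPKM as spheroids (270 reads). Both LOVO values were far below both HCT116 values. The log2 fold change of JAG1 was 1.11 in HCT116 and 0.47 in LOVO, and its log2 ratio was 1.17 (1.10 to 1.24) and 0.92 (0.61 to 1.24). An annotated gene on the opposite strand overlaps 79 of the 9298 exonic bases of JAG1.

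JAG2, the other Jagged ligand (chr14:105140981-105168824, minus strand), hardly differed between growth forms, at 14.6 and 14.8 FPKM in HCT116 and 6.28 and 6.74 FPKM in LOVO for adherent cells and spheroids. The counting intervals of its log2 ratio, -0.08 to 0.11 and -0.04 to 0.25, both included 0. A gene on the same strand, AL512356.1, shares 469 of the 6397 exonic bases of JAG2, so part of its reads may be uncertain. DLL1, a Delta ligand (chr6:170282206-170306565, minus strand), was at 3.67 FPKM adherent and 3.78 FPKM as spheroids in HCT116 (241 and 205 reads), with an interval from -0.23 to 0.32. In LOVO, DLL1 had 0 reads in both libraries, which allows up to 0.0519 FPKM in adherent cells and 0.0462 FPKM in spheroids (3 reads each), so no fold is given for that line.

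DLL4, the Delta ligand best known from sprouting vessels (chr15:40929333-40939073, plus strand), took opposite directions in the lines. In HCT116 it was at 2.96 FPKM adherent (287 reads) and at 1.46 FPKM as spheroids (117 reads). In LOVO it was at 0.0937 FPKM adherent (8 reads) and at 0.689 FPKM as spheroids (66 reads). The log2 ratio was -1.02 in HCT116 (-1.34 to -0.70) and 2.88 in LOVO (1.82 to 4.15). On the log2(FPKM + 1) scale, which understates changes at such levels, the fold changes were -0.68 and 0.63. How many of all genes took opposite directions in the lines was not counted. Of 5 endothelial markers, PECAM1 and CDH5 (1.05 FPKM adherent, 1.42 FPKM as spheroids) were higher in LOVO spheroids than in adherent LOVO cells. VWF (7 and 14 reads) and TEK (5 and 9 reads) rested on few reads, and KDR had 0 reads in both. The summed level of the 5 markers went from 1.19 to 7.94 FPKM in LOVO, mostly through PECAM1 (0.0359 and 6.35 FPKM). In HCT116 it went from 0.327 to 0.861 FPKM. The part of these markers in the DLL4 values was not tested.

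DLL3, a ligand and no member, reached at most 1.18 FPKM. The summed ligand FPKM in HCT116 was 34.2 adherent and 49.4 as spheroids, of which JAG1 made up 37.7% and 58.9%. In LOVO the sums were 7.86 and 10.1 FPKM, and JAG2 made up 79.9% and 67.1%.

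**Figure D3:**
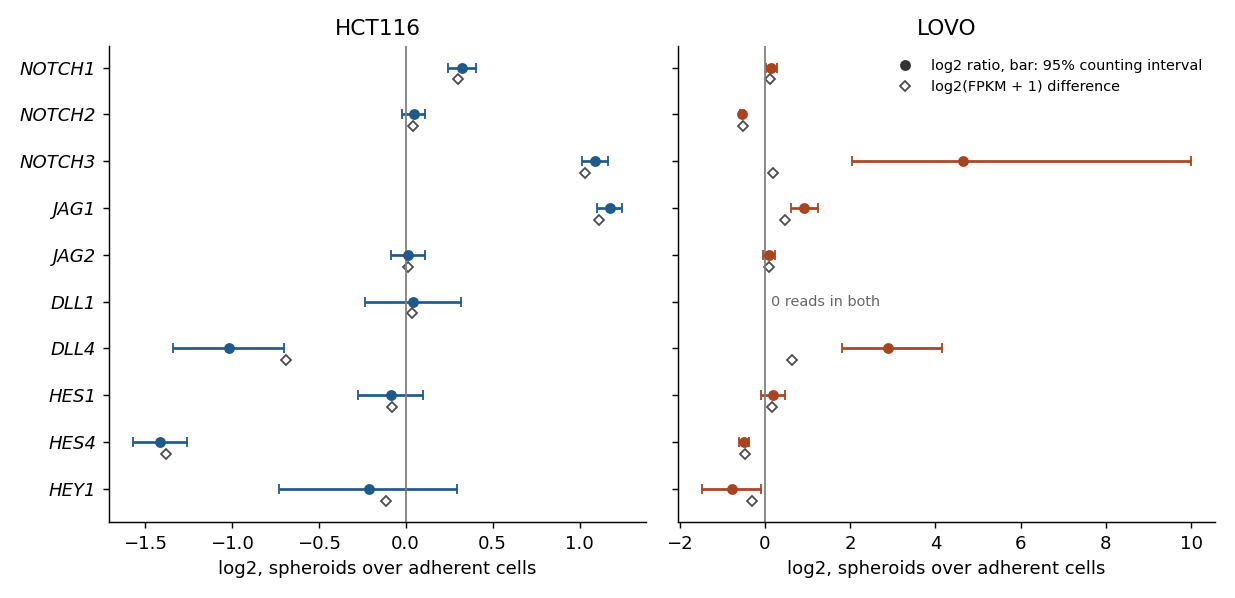
Log2 ratio of spheroids over adherent cells for each member in HCT116 and LOVO (filled points, bars for the 95% exact counting interval, 1 library per condition), with the difference on the log2(FPKM + 1) scale as open diamonds. The axes of the panels differ in range. NOTCH3 and JAG1 lie above 0 and HES4 lies below 0 in both lines, while DLL4 lies on opposite sides.

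Among the targets, HES4, a HES family repressor (chr1:998962-1000172, minus strand), was lower in the spheroid library of each line. In HCT116 it was at 64.6 FPKM adherent (1471 reads) and at 24.3 FPKM as spheroids (456 reads). In LOVO it was at 66.3 FPKM in adherent cells (1330 reads) and 47.6 FPKM in spheroids (1070 reads). The adherent levels of the lines were near each other, both spheroid levels were lower, and the gap was wider in HCT116. The log2 fold change was -1.37 in HCT116 and -0.47 in LOVO, with log2 ratios of -1.41 (-1.57 to -1.26) and -0.48 (-0.60 to -0.36).

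HES1, the target most used as a readout of the pathway (chr3:194136145-194138732, plus strand), was at 13.0 FPKM in adherent HCT116 cells (546 reads) and 12.2 FPKM in spheroids (424 reads). In LOVO it was at 5.17 FPKM in adherent cells (191 reads) and 5.91 FPKM in spheroids (245 reads). A difference between growth forms was not detectable at this depth in either line, the intervals of the log2 ratio being -0.27 to 0.10 and -0.09 to 0.47. The intervals of HES1 and HES4 did not overlap in either line. They cover counting error only, and how often other pairs of genes differ in this way was not counted. HEY1, a HES-related repressor, was low throughout, at 1.21 FPKM adherent and 1.05 FPKM as spheroids in HCT116 and at 0.811 and 0.477 FPKM in LOVO. Its 31 to 80 reads gave log2 ratios of -0.21 (-0.73 to 0.30) in HCT116 and -0.77 (-1.47 to -0.08) in LOVO.

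Over the 9 members compared, 2 were more than 1 higher on the log2 scale in HCT116 spheroids (NOTCH3 and JAG1) and 1 was more than 1 lower (HES4). Among all 14429 genes compared, 2.19% were that much higher and 3.33% that much lower, 5.52% in either direction. In LOVO spheroids, 0 of the 9 members passed 1 in either direction, where 16.4% of all genes did. The median log2 fold change of the 9 was 0.04 in HCT116 and 0.12 in LOVO, beside -0.03 and -0.06 over all genes. No member passed 2 on the log2(FPKM + 1) scale, which 0.707% of all genes passed in HCT116 and 2.75% in LOVO, although the log2 ratios of NOTCH3 and DLL4 in LOVO without a pseudocount, given above, were over 2. The count in LOVO depended on the pseudocount, since at 0.1 NOTCH3 and DLL4 passed 1, where 25.5% of all genes did. It includes DLL1, which had 0 reads in both LOVO libraries, and NOTCH3 and DLL4, which were under 1 FPKM in both, so that the pseudocount of 1 left them little room to differ.

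The growth forms were then tested with the lines standing in for replicates, in a limma fit that held cell line as covariate over the 4 libraries and left 1 residual degree of freedom. By this test 0 of 14429 genes (0%) passed an adjusted p of 0.05 (Benjamini-Hochberg), and 1545 had an unadjusted p under 0.05. Of the 9 members, 0 were called and 2 had an unadjusted p under 0.05. HES4 had a log2 fold change of -0.92 (standard error 0.32, limma adjusted p = 0.462), lower in spheroids of both lines. JAG1 had 0.79 (standard error 0.28, limma adjusted p = 0.462), higher in spheroids of both lines. NOTCH3 had 0.61 (standard error 0.32, limma adjusted p = 0.491).

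The other genes of the pathway were described from lists of 53 genes, of which 42 had a mean of at least 1 FPKM. In HCT116 spheroids 21 were higher and 21 lower, with a median of -0.01, and in LOVO spheroids 26 were higher and 16 lower, with a median of 0.13. Over all genes the medians were -0.03 and -0.06. Counts of this kind, here and for the lists below, take in differences of any size, and the share of all genes was not set beside them. By limma, 0 of the 42 were called between the growth forms and HES7 alone had an unadjusted p under 0.05 (log2 fold change 1.61, limma adjusted p = 0.462).

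HES7 passed a log2 fold change of 1 in both lines. HES7, the oscillating repressor of the segmentation clock, was at 0.394 FPKM in adherent HCT116 cells (15 reads) and 1.85 FPKM in spheroids (58 reads), and at 5.07 and 26.7 FPKM in LOVO (170 and 1005 reads). Its log2 fold change was 1.03 in HCT116 and 2.19 in LOVO, so that the HES family held genes of either direction in spheroids of the same line.

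Among the list of HES, HEY and feedback targets, which holds the 3 target members, 7 of 11 genes were compared. In HCT116, 1 of these 7 was higher in spheroids and 6 were lower (median -0.10), and in LOVO 6 were higher and 1 was lower (median 0.40). The quartiles of all genes were -0.30 and 0.23 in HCT116 and -0.50 and 0.37 in LOVO. HES1 had no detectable difference in either line, and HEYL counted as higher in LOVO on 0 and 4 reads. HES4 was lower in both lines. NRARP, a feedback inhibitor of the receptor's intracellular domain, was at 10.9 and 8.51 FPKM in HCT116 and at 2.21 and 4.75 FPKM in LOVO. HES6, a HES protein that counteracts HES1, was at 36.1 and 32.2 FPKM in HCT116 and 8.27 and 13.4 FPKM in LOVO. OLFM4, an intestinal stem cell gene, had at most 1 read in any library.

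The enzymes that modify and cut the receptors showed smaller differences, none past 1. Of 6 genes for glycosylation and furin cleavage, 5 were higher in HCT116 spheroids and 4 in LOVO spheroids, led in level by FURIN, the protease of the receptor's first cut, at 23.9 and 29.3 FPKM in HCT116 and 44.8 and 69.0 FPKM in LOVO. POFUT1, which adds O-fucose to the receptors, was lower in spheroids of both lines, at 12.8 and 9.34 FPKM in HCT116 and 23.0 and 11.3 FPKM in LOVO. Of 8 genes for the ADAM proteases and gamma-secretase, 2 were higher in HCT116 spheroids and 5 in LOVO spheroids. APH1A and NCSTN, both parts of gamma-secretase, had the highest levels of these 8, with log2 fold changes between -0.41 and 0.14. Of 4 genes for ligand endocytosis, 2 were higher in each line, among them MIB2, a ubiquitin ligase, with 0.57 in HCT116 and 0.67 in LOVO. MIB1, the related ligase with the highest mean level of these 4, had 0.35 and -0.06.

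In the nucleus, RBPJ itself was at 13.7 and 15.7 FPKM in HCT116 and 6.19 and 7.28 FPKM in LOVO. Of the 12 genes for RBPJ, its coactivators and corepressors, 9 were higher in HCT116 spheroids and 7 in LOVO spheroids. SPEN, a corepressor with the highest mean level of the list, had log2 fold changes of 0.08 and 0.23. Of the 8 genes for receptor trafficking and turnover, 6 were compared, and 1 was higher in HCT116 spheroids and 2 in LOVO spheroids. ITCH, a ubiquitin ligase of the receptors, had -0.06 and -0.31, and NUMBL, a relative of the inhibitor NUMB, had -0.62 and 0.07. The secretory fate factors of the gut were low, ATOH1 having 2 to 6 reads per library, and SPDEF 3 to 11. Of the 5, only GFI1 was compared, at 2.38 and 2.81 FPKM in HCT116 and 0.304 and 1.37 FPKM in LOVO.

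**Figure D4:**
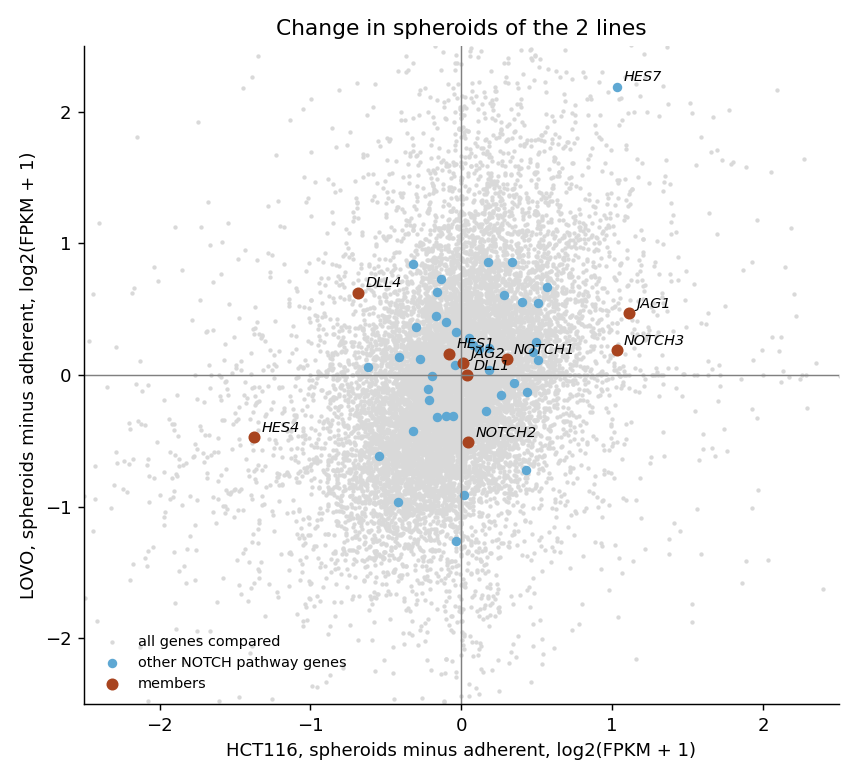
Log2 fold change of spheroids over adherent cells, on the log2(FPKM + 1) scale, in HCT116 (x axis) and LOVO (y axis) for the 14429 genes compared (grey), the other pathway genes (blue) and the 9 members compared (red). The axes end at 2.5 in each direction, which leaves out 225 genes. JAG1 and NOTCH3 lie to the right, HES4 to the lower left and DLL4 to the upper left, and HES7 lies highest of the pathway genes.

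The lines were compared last. LOVO was below HCT116 by more than 1 on the log2 scale for 7 of the 9 members in adherent cells (NOTCH1, NOTCH3, JAG1, JAG2, DLL1, DLL4 and HES1), where 16.4% of all genes were that much lower. In spheroids the same held for 5 of the 9 (NOTCH1, NOTCH3, JAG1, JAG2 and DLL1), where 15% of all genes were. With TPM the 5 past 1 in spheroids were 4 lower and HES4 higher. Past 2 stood NOTCH3, JAG1 and DLL1 in both growth forms, where 5.59% of all genes were that much lower in adherent cells and 4.71% in spheroids. DLL1, NOTCH3 and DLL4 were under 1 FPKM in both LOVO libraries and entered the comparison through their HCT116 levels alone. That they are counted among the genes lower in LOVO thus depends in part on the filter, here and in the limma test that follows. These comparisons share no library, but each spheroid culture comes from the line of its adherent counterpart. NOTCH2 and HES4 were the only members compared that were higher in LOVO. The NOTCH2 difference was 0.75 in adherent cells and 0.20 in spheroids, and that of HES4 was 0.04 and 0.94, the first of these changing sign under TMM-style scaling and centring.

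In the limma fit, with growth form as the covariate and the growth forms standing in for replicates of a line, 3564 of 14429 genes had an adjusted p under 0.05, which is 24.7%, 12.6% being called higher and 12.1% lower in LOVO. Of the 9 members, 6 were called, all lower in LOVO. NOTCH3 had the widest difference, -4.16 (standard error 0.32, limma adjusted p = 0.00543). JAG1 followed with -3.30 (standard error 0.28, limma adjusted p = 0.00643), and DLL1 with -2.24 (standard error 0.29, limma adjusted p = 0.0121). Without a pseudocount, JAG1 was 16.9-fold lower in adherent LOVO cells and 20.2-fold lower in LOVO spheroids. For DLL1, with 0 reads in LOVO, the counting interval of the log2 ratio reached up to -5.83 in adherent cells and -6.04 in spheroids.

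The other 3 members called differed less, with -1.17 for NOTCH1, -1.07 for JAG2 and -1.06 for HES1 (limma adjusted p = 0.0311, 0.0368 and 0.0400). All 6 were lower in LOVO in both growth forms. HES1 lost the call with TPM (adjusted p = 0.0562), and without a filter on low values both HES1 (0.0590) and JAG2 (0.0533) lost it in limma. DLL4 missed the threshold (-1.20, standard error 0.42, limma adjusted p = 0.0990), as did HES4 (0.49) and NOTCH2 (0.48). Beside these differences, 5 of the 6 colon epithelial markers tested were called lower in LOVO by the same fit, CDH1 by -4.92 and EPCAM by -5.25, and the summed level of the 8 markers was 1280 to 1753 FPKM in HCT116 and 187 to 327 FPKM in LOVO. Of these markers, CDH1 and CDX2 entered the fit through their HCT116 levels alone, so that their count as lower in LOVO depends in part on the filter. The part of the markers in the member values was not tested.

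Of the other 42 pathway genes tested, 5 were called higher and 8 lower in LOVO by limma. Among all genes tested, 12.6% were called higher and 12.1% lower. HEYL, another HEY family target, had 418 and 332 reads in HCT116 but 0 and 4 reads in LOVO, and was among those called lower. RBPJ (-1.02), LFNG, a glycosyltransferase that tunes which ligand a receptor answers (-1.68), and the corepressors TLE1 (-1.25) and TLE2 (-1.16) were also lower. HES7 (2.70), NCSTN (1.87) and the corepressor TLE4 (2.05) were among those called higher. TLE4 had at most 2 reads in HCT116 and 694 and 336 reads in LOVO. HEYL entered the test through its HCT116 levels alone and TLE4 through its LOVO levels alone. Their calls are thus in part a consequence of the filter.

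**Figure D5:**
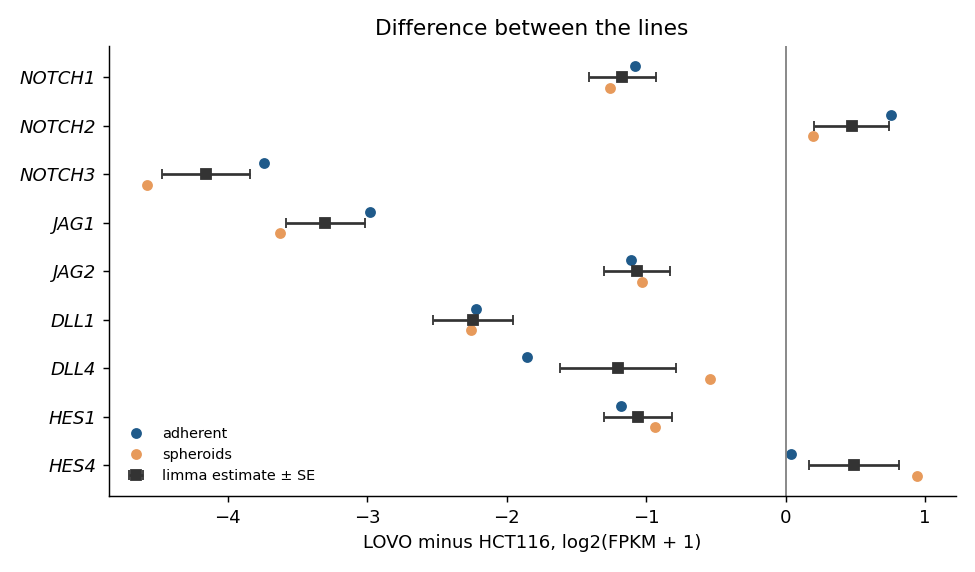
Difference of LOVO minus HCT116 on the log2(FPKM + 1) scale for the 9 members compared, in adherent cells and in spheroids (points, 1 library per condition), with the limma estimate and its standard error over the 4 libraries (squares). For 7 members both points lie below 0, farthest for NOTCH3 and JAG1, and for NOTCH2 and HES4 both lie above 0.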

How the data were processed

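RNA-seq of 4 libraries was analysed, grouped by the sample titles. The table the authors deposited gives FPKM for each gene in each library, beside gene length and coordinates. The aligner and counting tool are not given in the sources used here. The submitters' processing notes name GRCm 38 and mm 10, which are mouse builds, whereas all 58735 gene identifiers in the deposited table are human and were found in GENCODE 29 on GRCh38. Multiplied by gene length, 100% of the values above 0 came within 0.05 of a whole number of reads. The library sizes behind the FPKM were 0.907 to 1.09 times the reads on genes, so the table already carries a scaling.

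A gene was kept where its FPKM averaged 1 or more (14429 genes), and differences were taken on log2(FPKM + 1). Counting intervals are exact at 95% and cover counting error only, and 3 reads were taken as the floor. Limma 3.58.1 in R 4.3.3 (trend, Benjamini-Hochberg) was fitted to all 4 libraries with growth form and cell line, and tested on simulated data. In that run, 184 of the 200 genes changed between growth forms were recovered, with 37 false calls among 14429 genes. Set beside the 184 recovered, the 37 false calls exceed the share that the adjusted p threshold is meant to hold. The median estimate was 1.63 for genes raised and -1.63 for genes lowered in the simulation. Among the members, the widest limma estimate between growth forms was that of HES4, -0.92. The run therefore does not show whether changes of the size seen in the members would be found. Python 3.11.15, numpy 2.4.6, pandas 2.3.3, scipy 1.17.1 and matplotlib 3.10.9 were used otherwise. Transcripts were compared over stretches of 50 bases.

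The members and lists were chosen with earlier results of these data known. Named were all members and, of the other genes of each list, those past a log2 fold change of 1 in spheroids or, where none was, the 2 highest by mean level. RBPJ, SPEN, NRARP, HES6, OLFM4, ATOH1, HEYL, LFNG, TLE1, TLE2 and TLE4 fall outside that rule and were chosen after their values were seen. The result of 1 listed gene is not reported here. Alternatives were other pseudocounts, filters, scalings and thresholds.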

Additional observations from a re-analysis of the deposited data

Results flagged for a closer look

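DLL4 had opposite directions in the spheroids of the lines. Its log2 ratio of spheroids over adherent cells was -1.02 in HCT116 and 2.88 in LOVO, with counting intervals on opposite sides of 0. Only the members were searched for such a pattern, and its share among all genes was not counted. In LOVO it rested on 8 and 66 reads, under 1 FPKM in both libraries. In that line, 4791 genes had 0 reads in adherent cells and reads in spheroids, against 2027 the other way. The same numbers in HCT116 were 3793 and 3198. Their bearing on DLL4, and on NOTCH3 with its 1 and 28 reads in LOVO, was not tested. The difference between the lines was not tested, since each condition had 1 library.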

How the results depend on the processing

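Of 195 log2 fold changes of single members under 5 pseudocount and scaling alternatives, 193 kept their direction. The other 2 were HES4 between adherent LOVO and HCT116 cells, 0.04 as reported and -0.07 and -0.04 with TMM-style scaling and centring. A pseudocount of 0.1 or 0.01 cannot alter a direction, so only the scaling alternatives could have done so. At a threshold of 2, the members past it numbered 0 in HCT116 spheroids, 3 between the adherent lines and 3 between the spheroids. At the threshold of 1, the members past it in LOVO spheroids numbered 2 with pseudocounts of 0.1 and 0.01 and 1 with TPM, against 0 as reported. TPM moved the median of all genes from -0.06 to 0.10 in LOVO spheroids and from 0.04 to 0.26 between the spheroids of the lines, where 1 member was then higher and 4 were lower past 1, against 0 and 5. Limma called 0 genes between the growth forms under all 6 of its alternatives, while between 1110 and 2431 genes had an unadjusted p below 0.05. Between the lines it called 1887 genes when the minimum mean was 5 FPKM, where fewer genes were tested, against 3564. DLL1, NOTCH3 in adherent LOVO cells and DLL4 in LOVO are limited by depth. The cell line term of the limma fit paired the growth forms by line and gave a single estimate averaged over the lines. The labels give no replicate numbers, so no finer pairing was possible. With 1 library per condition, no replicate could be left out.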
